A study of Mus musculus with 8 samples.

Results

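Stromal cells of the bone marrow make the niche in which B cells develop. Reticular cells that carry the leptin receptor secrete CXCL12, which holds haematopoietic cells in the marrow, and stem cell factor, which keeps progenitors alive. Osteoblasts and fibroblasts lay down collagen, and smooth muscle cells and pericytes of the vessel wall contract through smooth muscle actin and myosin. None of these cells belongs to the B lineage, and their transcripts were read here in a fraction enriched for B cells.

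The 10 genes described are the niche genes Cxcl12, Lepr and Kitl, the matrix genes Col1a1, Col1a2, Col3a1, Sparc and Bglap, and the contractile genes Acta2 and Mylk, out of 54532 genes in the count table. They were chosen by name as stromal and contractile genes with earlier results of the same counts known. Acta2 was selected on its low unadjusted p-value and its lower level after ovariectomy, and Kitl was named beside it, so the difference between the groups is given for these 2 genes as a description without a test. RNA of bone marrow B cells, sorted with magnetic beads, was sequenced from mice after sham surgery (Sham, 3 libraries) and after bilateral ovariectomy (OVX, 3 libraries), a surgical model of menopause. The labels of these libraries give no genotype, strain, age or time after surgery. They do not state that each library came from a separate mouse, so the spread between libraries may be technical. Between 23838775 and 33136701 reads were counted per library.

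B cell transcripts were abundant in every library. The 12 B cell markers, Cd79a and Pax5 among them, summed to between 9856 and 11457 CPM (reads of a gene as a share of the library's reads, scaled to a common total with TMM factors). Other cells were also present. The 15 neutrophil markers summed to between 1166 and 9974 CPM with the highest sum in Sham replicate 3. In that library they exceeded the B cell markers, which had their lowest sum there, 9856 CPM. The 15 macrophage markers summed to 3469 CPM in Sham replicate 2, to 3082 in OVX replicate 3 and to between 1053 and 1751 in the other 4 libraries. The 12 megakaryocyte markers summed to 383 CPM in OVX replicate 3 and to between 157 and 245 in the others, and the 12 endothelial markers to between 261 and 292, of which Pecam1, a gene that other blood cells also express, made up between 223 and 230 CPM in each library. Apart from that sum, 6 of the 10 endothelial markers tested had their highest level in OVX replicate 3, among them Kdr and Esam, both at 2.75 CPM there and at no more than 1.80 and 1.87 CPM elsewhere. The part of these cells in the results was not tested. Fewer cells of a type and less RNA per cell cannot be told apart in such bulk samples.

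OVX replicate 3 stood apart for the stromal genes. Of the 10 genes, 9 passed the filter on low counts, and 6 of these 9 (Cxcl12, Lepr, Col1a2, Col3a1, Sparc and Mylk) had their highest level in this library, where 13.1% of all genes tested had theirs. The same 6 genes had a higher mean in OVX, and Kitl, Col1a1 and Acta2 had a lower one. No gene in the whole table had an adjusted p-value under 0.05 by edgeR's quasi-likelihood test (0 of 15305 called, or 0%), by DESeq2 or by limma-voom. An unadjusted one under 0.05 was reached by 574 of 15305 genes with edgeR, 594 of 15305 with limma-voom and 755 of 27412 with DESeq2. At an unadjusted p-value under 0.05, 1.47% of all genes were higher and 2.28% lower in OVX. Of the 9 members tested, none was higher and 1 was lower, Acta2, which had been picked for that. The median log2 fold change of the 9 genes was 0.44, against -0.0081 over all genes tested, and it was -0.0086 with 4 genes higher and 5 lower when OVX replicate 3 was left out.

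**Figure D1:**
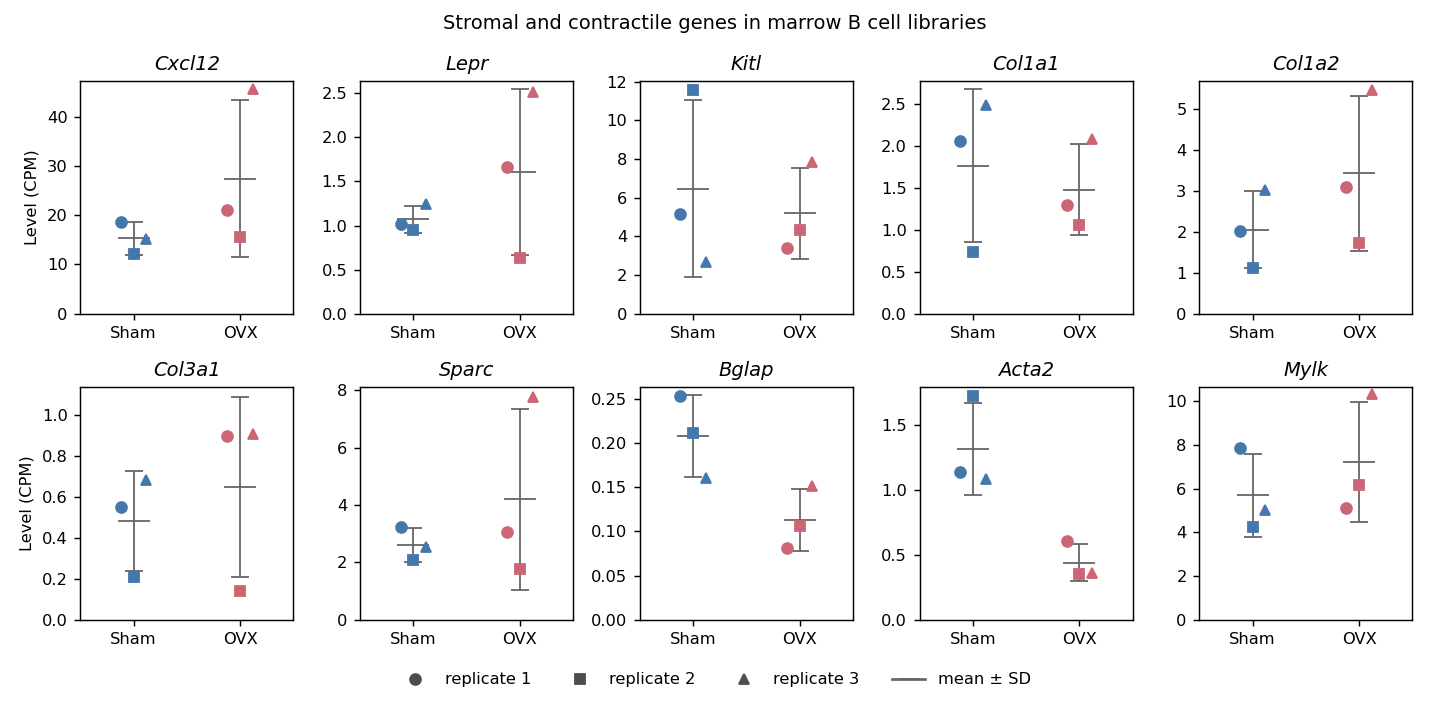
Level of the 10 genes in CPM (vertical axis, from 0, a separate scale per gene) in the Sham and OVX libraries, with the symbol marking the replicate number and the bar the mean and SD of 3 libraries. OVX replicate 3 is the highest point for Cxcl12, Lepr, Col1a2, Col3a1, Sparc and Mylk. All 3 OVX points lie below all 3 Sham points for Acta2, as for 4.12% of all genes tested. They do so for Bglap too, which was not tested and had 6 reads or fewer. Its read numbers overlapped, with 5 in OVX replicate 3 and 4 in Sham replicate 3.

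Cxcl12 (ENSMUSG00000061353, chr6:117168535-117181368), the chemokine that retains B cell precursors and stem cells in the marrow, comes first among the niche genes. The Sham libraries held 444, 342 and 378 reads of it in replicate order and the OVX libraries 517, 445 and 1508. Its level was 27.4 ± 16.0 CPM after OVX against 15.3 ± 3.35 after Sham (mean ± SD, n = 3 each), a log2 fold change of 0.84 (SE 0.39, 95% interval from -0.067 to 1.76, edgeR quasi-likelihood adjusted p = 0.811). Sham replicate 1 exceeded OVX replicate 2, so the groups overlapped. OVX replicate 3 had 2.48 times the mean of the other OVX libraries, and without it the log2 fold change was 0.26. Only 31 of the 15305 genes tested, or 0.203%, had at least 2 times the level of every other library in OVX replicate 3, and Cxcl12 and Sparc were among them.

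Lepr (ENSMUSG00000057722, chr4:101717137-101815352) encodes the leptin receptor that marks the reticular stroma. It had 24, 27 and 31 reads in Sham and 41, 18 and 83 in OVX. The Sham libraries were close to each other, whereas OVX held both the lowest and the highest level. The means were 1.60 ± 0.94 CPM after OVX against 1.07 ± 0.16 after Sham (mean ± SD, n = 3 each), with a log2 fold change of 0.59 (95% interval from -0.55 to 1.73, edgeR quasi-likelihood adjusted p = 0.811) that was 0.10 without OVX replicate 3. Lep, the gene of the ligand leptin, had no read in any library.

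Kitl (ENSMUSG00000019966, chr10:100015615-100100416), which encodes stem cell factor, the ligand of the receptor KIT, had another profile. Its reads were 122, 328 and 67 in Sham and 84, 122 and 260 in OVX. The levels were highest in Sham replicate 2 (11.5 CPM) and OVX replicate 3 (7.86 CPM), the 2 libraries with the highest macrophage sums, and between 2.69 and 5.14 CPM elsewhere. The part of other cells in this was not tested. Its mean was 5.19 ± 2.35 CPM after OVX against 6.46 ± 4.57 after Sham (mean ± SD, n = 3 each), a log2 fold change of -0.31 that turned to 0.41 without Sham replicate 2. The direction of Kitl thus hung on 1 library.

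A list of 11 genes held the receptors Cxcr4, Ackr3 and Kit of these ligands, other receptors and adhesion molecules through which cells read the marrow niche, the signalling genes Jak2 and Stat3, and Lep. Of the 10 tested, 4 had a higher and 6 a lower mean in OVX (median log2 fold change -0.082), and none was called. Cxcr4, the receptor of CXCL12, was at 584 ± 108 CPM after OVX against 422 ± 161 after Sham (mean ± SD, n = 3 each), a log2 fold change of 0.47 (SE 0.26, edgeR quasi-likelihood adjusted p = 0.811). The integrin gene Itga4 had a log2 fold change of -0.10 and the interleukin-7 receptor gene Il7r one of 0.33. Flt3, a cytokine receptor of early progenitors, was the only gene of this list at an unadjusted p-value under 0.05, with a log2 fold change of -0.64 and every OVX library below every Sham library, as for 4.12% of all genes tested.

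The fibrillar collagens form the fibres of bone and connective tissue, and their reads were few. Col1a1 (ENSMUSG00000001506, chr11:94936224-94953042), the α1 chain of type I collagen, had 49, 21 and 62 reads in Sham and 32, 30 and 69 in OVX. Its log2 fold change was -0.24 (95% interval from -1.38 to 0.90, edgeR quasi-likelihood adjusted p = 0.903), and 0.091 without Sham replicate 3. Col1a2 (ENSMUSG00000029661, chr6:4505618-4541543), the α2 chain of the same molecule, had 48, 32 and 75 reads in Sham and 76, 49 and 181 in OVX. Both chains were low in Sham replicate 2, and OVX replicate 3 exceeded the highest other library 1.77 times for Col1a2 but lay below Sham replicate 3 for Col1a1. The log2 fold change of Col1a2 was 0.75 (95% interval from -0.43 to 1.92, edgeR quasi-likelihood adjusted p = 0.811), with 0.23 without OVX replicate 3. Col3a1 (ENSMUSG00000026043, chr1:45311538-45349706), the type III collagen of reticular fibres, had 13, 6 and 17 reads in Sham and 22, 4 and 30 in OVX. At this depth its interval ran from -1.23 to 2.11 around a log2 fold change of 0.44.

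Sparc (ENSMUSG00000018593, chr11:55394159-55420080) encodes osteonectin, a collagen-binding protein of bone that is also stored in platelets. Reads of it numbered 77, 59 and 63 in Sham and 75, 50 and 257 in OVX. OVX replicate 3 alone stood out, at 3.23 times the mean of the other OVX libraries, and the remaining 5 libraries lay between 1.76 and 3.25 CPM. The log2 fold change was 0.69 (SE 0.52, edgeR quasi-likelihood adjusted p = 0.811) and -0.12 without that library. Reads of Sparc per read of Cxcl12 were 0.173, 0.173 and 0.167 in Sham and 0.145, 0.112 and 0.170 in OVX. The ratio in OVX replicate 3 (exact binomial 95% interval from 0.149 to 0.195, counting error only) was inside the range of the Sham libraries, although the level of each gene there was at least 2 times that of any other library. This pair is one of several compared, and the others ranged more widely. Reads of Cxcl12 per read of Lepr, for example, ran from 12.2 to 24.7, and those of Sparc per read of Col1a2 from 0.84 to 1.84.

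Bglap (ENSMUSG00000074483, chr3:88383495-88384466), the osteocalcin gene of mature osteoblasts, had 6, 6 and 4 reads in Sham and 2, 3 and 5 in OVX and did not pass the filter, so it was not tested. The near-identical copies Bglap2 and Bglap3 reached 4 reads and 1 read at most, and the counting could have split reads among the 3 genes. Other genes of the osteoblast lineage were as rare. Dmp1 and Mepe, made by osteocytes, were at 0 in every library, Sp7, a transcription factor of osteoblasts, had 6 reads in Sham replicate 3 and none elsewhere, and 6 of the 18 osteoblast genes listed passed the filter. Of these 6, 2 were higher and 4 lower in OVX. Alpl, the alkaline phosphatase gene, had a log2 fold change of -0.16, Col11a2 one of -0.22 and Spp1, the osteopontin gene, one of -0.23. Runx2, at an unadjusted p-value under 0.05, had one of -1.62 (SE 0.66, edgeR quasi-likelihood adjusted p = 0.811), with 71, 215 and 322 reads in Sham and 118, 33 and 57 in OVX. Sham replicate 3 was highest for Runx2 and for the neutrophil sum, and the part of other cells was not tested.

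Acta2 (ENSMUSG00000035783, chr19:34240336-34255585), the α actin of smooth muscle, went the other way. It had 27, 49 and 27 reads in Sham and 15, 10 and 12 in OVX, or 1.14, 1.72 and 1.09 CPM against 0.610, 0.353 and 0.363. Each OVX level was under the lowest Sham level, as for 4.12% of all genes tested. The opposite order, each OVX level over the highest Sham level, was found for 4.33% of genes tested and for no member. The mean was 0.442 ± 0.146 CPM in OVX and 1.32 ± 0.355 CPM in Sham (mean ± SD, n = 3 each), with a log2 fold change of -1.58 that stayed between -1.87 and -1.34 when any one library was left out. Acta2 was chosen from these values, and it passed the filter through the Sham group, since 2 of its OVX libraries were under the level that the filter asks for.

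Mylk (ENSMUSG00000022836, chr16:34745199-35002436) encodes the kinase that phosphorylates the regulatory light chain of myosin and so starts contraction, and platelets and other cells use it too. Mylk and Kitl are also in a gene list of the study, picked on the RNA of these libraries together with HIF-1α binding from separate ChIP-seq samples. On the RNA level of either gene, that list is not independent evidence. There were 186, 120 and 125 reads of Mylk in Sham and 126, 175 and 341 in OVX. Its level was 7.20 ± 2.74 CPM after OVX against 5.70 ± 1.90 after Sham (mean ± SD, n = 3 each), a log2 fold change of 0.34 (95% interval from -0.45 to 1.13, edgeR quasi-likelihood adjusted p = 0.817). Sham replicate 1 exceeded both other OVX libraries, and without OVX replicate 3 the log2 fold change was -0.0086. OVX replicate 3 was the highest library for Mylk and the next to lowest for Acta2, whereas Sham replicate 1 came next to the highest for both.

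**Figure D2:**
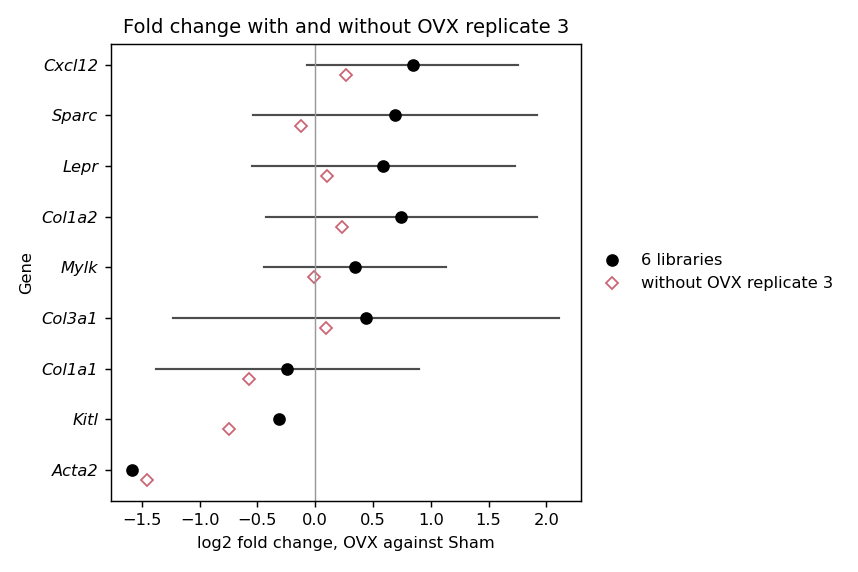
log2 fold change of OVX against Sham (horizontal axis) of the 9 genes tested, as filled circles with all 6 libraries and as open diamonds without OVX replicate 3. Lines are 95% intervals of edgeR's quasi-likelihood fit, and all of those drawn include 0. They are left off for Acta2, which was picked from this contrast, and for Kitl, which was named beside it. Without OVX replicate 3 Sparc and Mylk fall below 0, and Acta2 moves from -1.58 to -1.45.

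Genes of smooth muscle proper differed in level. Of the 18 genes listed for smooth muscle and pericytes, Myocd, the master regulator of the lineage, was at 0 in all libraries. Des had 3 reads in OVX replicate 1 and 1 in OVX replicate 3, and Myh11, the smooth muscle myosin, had between 3 and 7 reads. Tagln had between 9 and 23 reads per library, Cnn1 between 34 and 83 and Cald1 between 60 and 382. Of the 12 tested, 9 had a higher and 3 a lower mean in OVX (median log2 fold change 0.10), and 6 had their highest level in OVX replicate 3. Myl9, the smooth muscle form of the light chain that MYLK phosphorylates, had 122, 151 and 127 reads in Sham and 192, 202 and 570 in OVX. The lowest OVX level of Myl9 exceeded the highest Sham level, as for 4.33% of all genes tested. Its means were 10.7 ± 5.65 CPM after OVX against 5.19 ± 0.111 after Sham (mean ± SD, n = 3 each), with a log2 fold change of 1.05 (SE 0.35, edgeR quasi-likelihood adjusted p = 0.811). OVX replicate 3 was at 17.2 CPM, and OVX replicates 1 and 2 were at 7.81 and 7.12. The most abundant genes of the list, Flna, Tpm1 and Smtn, which many cell types express, had log2 fold changes of -0.21, 0.10 and 0.10.

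The general machinery of myosin phosphorylation, which B cells express themselves, showed small differences apart from Myh10, and no gene of it passed the test. All 18 genes listed (among them ROCK kinases, myosin phosphatase subunits, nonmuscle myosins, actins and the SRF cofactors) were tested, 12 were higher and 6 lower in OVX, and none was called or had an unadjusted p-value under 0.05. Actb and Myh9 had log2 fold changes of 0.063 and -0.21. Myh10 was the lowest, at -0.97, and the highest was 0.18.

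The other niche and matrix genes had mixed profiles. Of 12 tested among 20 further niche genes, 7 were higher and 5 lower in OVX (median 0.035, and -0.19 without OVX replicate 3). The 3 most abundant were Vcam1 (log2 fold change -0.35), Tgfbr2 (0.052) and Lpl (-0.52). Vcam1, an adhesion molecule that is also in the macrophage list, and Lpl, lipoprotein lipase, were high in Sham replicate 2 and OVX replicate 3, as Kitl was. Of 12 tested among 20 further matrix genes, 9 were higher and 3 lower (median 0.25), but 3 were higher and 9 lower (median -0.30) without OVX replicate 3, in which 8 of the 12 had their highest level. Mmp14 had a log2 fold change of 0.10, Timp3, an inhibitor of metalloproteinases, one of 0.67, and Fn1, fibronectin, one of -1.68, with 3228 reads in Sham replicate 3, where the neutrophil sum was highest. Of 10 tested among 15 collagen-processing genes, 3 were higher and 7 lower (median -0.11). Ppib and P4ha1 had log2 fold changes of -0.092 and -0.14. Plod3, a lysyl hydroxylase of collagen, was at 25.0 ± 1.63 CPM after OVX against 34.3 ± 6.49 after Sham (mean ± SD, n = 3 each). It had a log2 fold change of -0.46 and an unadjusted p-value under 0.05 (edgeR quasi-likelihood adjusted p = 0.811). Every OVX library was below every Sham library for it, as for 4.12% of all genes tested. None of these genes was called.

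**Figure D3:**
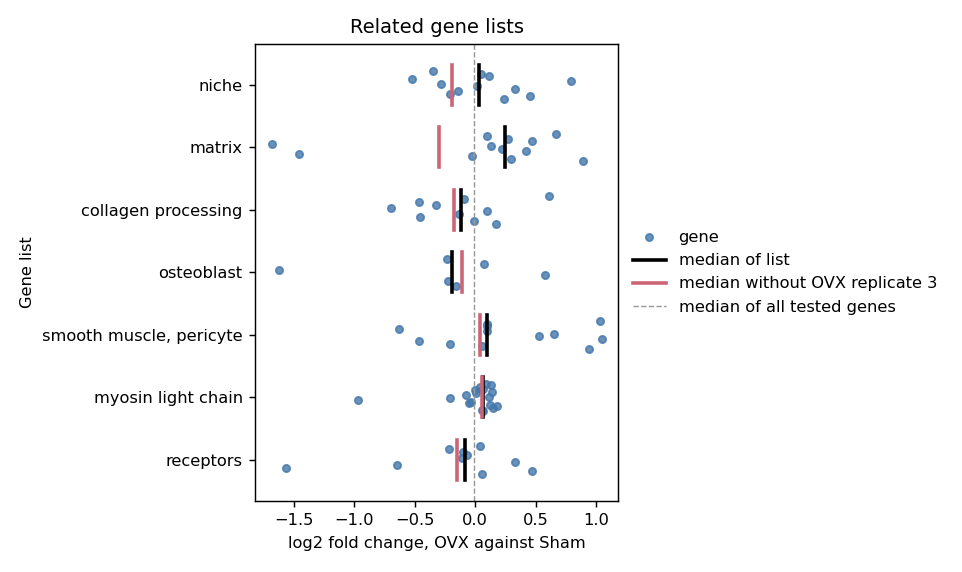
log2 fold change of OVX against Sham (horizontal axis) of the tested genes of 7 related lists, 1 point per gene. The black bar is the median of the list, the red bar its median without OVX replicate 3 and the dashed line the median of all genes tested, -0.0081. The matrix list has the widest gap between its bars, from 0.25 to -0.30.

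Each gene's profile over the 6 libraries was set beside that of every other gene tested, with the root mean square difference of log2 CPM, centred on the gene's mean, as the measure of likeness. The members nearest to each other were Cxcl12 and Sparc (0.22) and Lepr and Sparc (0.30), and the farthest apart were Col1a2 and Acta2 (1.31). Cxcl12 was most like Pde3a (0.075), Igfbp5 (0.11) and Bgn (0.11), the last encoding biglycan, a proteoglycan of bone. Sparc was most like Bgn (0.14), Cxcl12 (0.22) and Pf4 (0.22), and Lepr was most like Gp9 (0.15), Slc6a4 (0.17) and Pf4 (0.20). Gp9 and Pf4 are platelet genes, and all 11 megakaryocyte markers tested had their highest level in OVX replicate 3. Col1a2 was nearest to Cald1 (0.19), Notch3 (0.20) and Epas1 (0.22), and Kitl to Ckb (0.13), Fgf1 (0.14) and Cadm1 (0.16). Mylk was nearest to Dzip1, Bfsp2 and Tsc22d1 (from 0.098 to 0.12), Acta2 to Fhdc1, Lrrc23 and Zdhhc2 (from 0.16 to 0.24) and Col1a1 to Trmt112-ps2, 6820402A03Rik and Mme (from 0.14 to 0.15). Col3a1, with few reads, had no neighbour closer than 0.27, its nearest being Gm48478, 4930417H01Rik and Gm12758. These values describe 6 libraries, in which many genes share a profile.

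**Figure D4:**
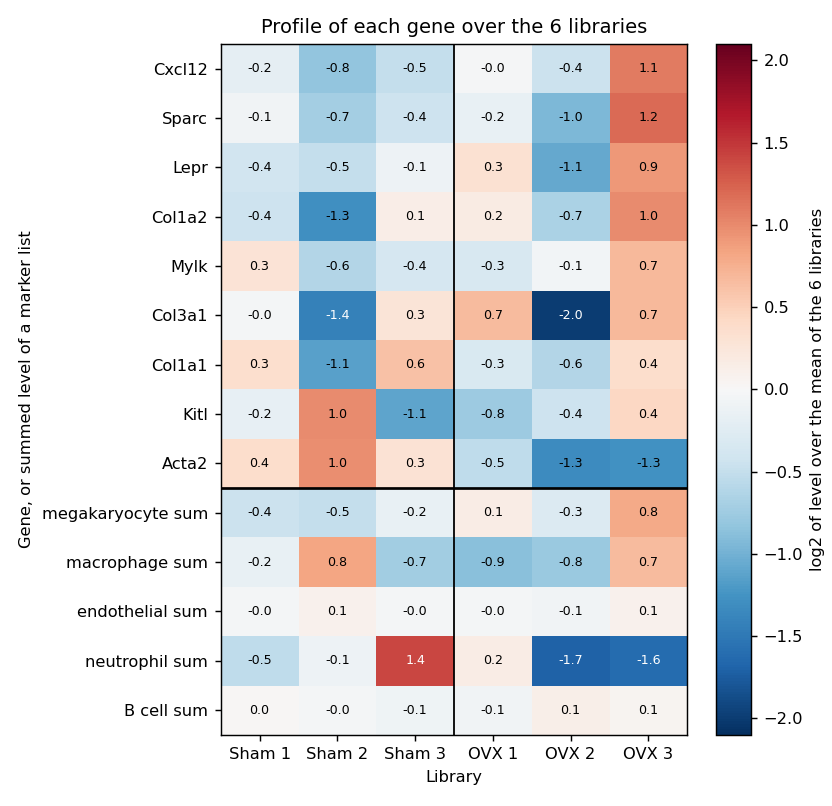
Level of each gene tested, and summed level of 5 marker lists, in each library as log2 of the level over the mean of the 6 libraries (colour and printed value). The 6 uppermost genes are highest in OVX replicate 3 or, for Col3a1, nearly as high in OVX replicate 1, Kitl follows the macrophage sum with high values in Sham replicate 2 and OVX replicate 3, and the B cell sum is flat.

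The series was built around HIF-1α, which binds hypoxia response elements, so the 250 bases before the start sites were searched for the core letters of that element, ACGTG or GCGTG, on both strands (RefSeq, build GRCm38.p6). Promoters were found for 9 of the 10 genes, and 4 held a core, where 38.6% of 32851 promoters held at least 1 of the 2 (16.6% ACGTG and 28.2% GCGTG). That share counts promoters and not genes, and Lepr had 2 promoters, of which 1 held a core. The stretches with a core are printed 5′ to 3′ on the strand of the gene with the core, or its reverse complement, in capitals, to show how the members differ there. The stretches of Lepr (chr4:101717351-101717379), Kitl (chr10:100015747-100015775) and Mylk (chr16:34784791-34784819) lie within the annotated span of the gene, and that of Col1a2 (chr6:4505457-4505565) lies before it. All 4 are on the plus strand.
Lepr: aagctcctcggcCACGCgcgcagcgtccc
Kitl: gaagggaaggagGCGTGtccggagctggc
Col1a2: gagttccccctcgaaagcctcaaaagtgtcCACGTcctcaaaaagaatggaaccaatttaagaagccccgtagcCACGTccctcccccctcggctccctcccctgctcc
Mylk: acattccctggtACGTGcagggccggaag
The core began 44, 62 and 147 bases upstream of the start site used in Lepr, Kitl and Mylk. Col1a2 held 2 cores, at 131 and 87 bases. The start site used for Mylk is inside the gene, which begins at chr16:34745199, and the bases before that position were not searched. The windows of Cxcl12, Col3a1, Sparc, Bglap and Acta2 held none of these letters. Of the 4 genes with a core, Lepr, Col1a2 and Mylk had log2 fold changes of 0.59, 0.75 and 0.34 and Kitl one of -0.31. Without a core, Cxcl12, Sparc and Col3a1 had 0.84, 0.69 and 0.44 and Acta2 had -1.58, while Bglap was not tested. The binding data of the series were not analysed here, and a match of letters is not a site.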

How the data were processed

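For 6 RNA-seq libraries the authors deposited counts, not normalized, with one row for each Ensembl identifier. The submitters' processing notes name CASAVA, Bowtie 0.12.2 and build mm10. The counting tool, the annotation and the use of strand are not given in the sources used here, so genes that overlap or have close copies may share reads. Coordinates and promoters are from RefSeq on GRCm38.p6, and symbols were matched for 54409 of 54532 identifiers (Myl12b has 2, and the one with more reads was used).

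The tests were run in edgeR 4.0.16 (R 4.3.3). After filterByExpr (15305 genes kept) and TMM scaling, the contrast of OVX with Sham was fitted by quasi-likelihood, with Benjamini-Hochberg adjustment over all genes kept and calls made at an adjusted p-value under 0.05. Standard errors are the log2 fold change divided by the square root of F. DESeq2 1.42.0 and limma 3.58.1 (voom), other scalings, no filter, a block and leaving out each library were tried, and the fits were checked on counts drawn with known differences.

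The members and lists were chosen with earlier results of these data known. Every member is named, and of each related list the 3 genes with the highest mean level and any at an unadjusted p-value under 0.05, and for each member its 3 nearest profiles. One gene that this rule names is not reported here. Likeness used log2 CPM with a prior count of 2. Every pair of libraries differed by more than sampling noise (chi-square per degree of freedom of at least 9.46). The ChIP-seq samples were not analysed here.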

Additional observations from a re-analysis of the deposited data

How the results depend on the processing

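No gene and no member was called in any of the 12 alternatives. The median log2 fold change of the members, 0.44 in the fit reported, ran from 0.33 with the replicate block to 0.44 without the filter, and from -0.0086 without OVX replicate 3 to 0.91 without OVX replicate 2. An unadjusted p-value under 0.05 was reached by 574 genes in the fit reported, against 206 with the replicate block and 594 with limma-voom. It was reached by 1269 without the filter (27416 genes tested) and 755 with DESeq2 (27412 genes tested). When 1 library was left out, the number ran from 233 (without OVX replicate 2) to 2698 (without Sham replicate 1).

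Among single members, 4 changed sign, each when 1 library was left out. Kitl ran from -0.74 without OVX replicate 3 to 0.41 without Sham replicate 2, Col1a1 from -0.61 without Sham replicate 2 to 0.091 without Sham replicate 3, Sparc from -0.12 without OVX replicate 3 to 1.05 without OVX replicate 2, and Mylk from -0.0086 without OVX replicate 3 to 0.64 without Sham replicate 1. Cxcl12 ran from 0.26 to 1.13 and Acta2 from -1.87 to -1.34. What caused these changes was not tested. The titles do not say whether libraries of the same number were paired. Correlations of their deviations across genes were -0.41, -0.189 and -0.279. They cannot settle this, since they were not set beside those of libraries with unlike numbers. With 2 to 83 reads per library for Lepr, Col3a1, Acta2, Col1a1 and Bglap, counting limits the precision. The counts of the related lists without OVX replicate 3 were read after seeing the data.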

Other observations

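The balance of the 2 chains of type I collagen was read after the values were seen. Reads of Col1a2 per read of Col1a1 were 0.98, 1.52 and 1.21 in the Sham libraries, by replicate number, and 2.38, 1.63 and 2.62 in the OVX libraries. All OVX ratios lay above all Sham ratios. This pair is one of several compared. The ratios of Mylk to Acta2, a gene picked for its lower OVX level, separated the groups too, and the remaining pairs overlapped. How often the ratio of any 2 genes separates the groups was not counted. The exact binomial 95% intervals, which cover counting error only, ran from 0.64 to 1.49 in Sham replicate 1, from 0.85 to 1.72 in Sham replicate 3, from 1.55 to 3.71 in OVX replicate 1 and from 1.98 to 3.51 in OVX replicate 3. The interval of Sham replicate 3 overlapped that of OVX replicate 1, and those of the replicates numbered 2 overlapped intervals of the other group too. Both genes encode chains of the same trimer, and their log2 fold changes were -0.24 for Col1a1 and 0.75 for Col1a2.

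The 31 genes that OVX replicate 3 held at 2 or more times the level of every other library included, beside Cxcl12 and Sparc, the matrix genes Bgn and Timp3, the niche gene Igfbp5 and the contractile genes Tpm2, Myl9 and Cald1, all named here after their values were seen. The widest gap was that of Marco, a scavenger receptor of marginal zone macrophages, with 1176 reads in OVX replicate 3 and between 26 and 73 in the other libraries, 13.8 times the highest other level. C1qa, a general marrow macrophage transcript, had 6176 reads in that library and 6302 in Sham replicate 2.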
